A study of Mus musculus with 6 samples.

Results

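The genes described here encode the machinery that stores neurotransmitter in synaptic vesicles and releases it at the active zone. They are 40 of the 16613 genes in the table, listed by symbol and grouped by role into 5 groups: SNAREs with their regulators, priming factors, active zone scaffolds, vesicle proteins and vesicle transporters. All 40 were present, and all 40 were among the 15043 genes tested. Dorsal root ganglia from mice 6 months old were profiled by mRNA sequencing. They hold the cell bodies of sensory neurons with satellite glia, Schwann cells and other cells, whereas the central terminals, where most of this machinery works, lie in the spinal cord. The 3 control libraries came from mice homozygous for floxed Kif2a alleles (Kif2a fl/fl), labelled WT. The 3 knockout libraries came from mice with the same floxed alleles plus Avil cre, a Cre recombinase under the control of advillin, a gene of sensory neurons. All mice thus carried the floxed alleles, and the knockout group alone carried the Cre.

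Release begins when SNARE proteins of the vesicle and of the plasma membrane zip together and pull the membranes into contact. Priming factors make docked vesicles ready for fusion, and active zone scaffolds hold vesicles near the calcium channels that trigger it. In sensory neurons the same proteins also serve the release of peptides from dense-core vesicles, and glutamate is loaded into small vesicles by transporters of the Slc17a family.

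Library totals ran from 16090726 to 19221415 counts, and levels are given as CPM, counts scaled to library size with edgeR's TMM factors. Where 3 values of a group are listed, they are replicates 1, 2 and 3 in that order, and a value after ± is the SD over them. Kif2a was at 92.7 to 105.6 CPM in the control libraries and at 85.7 to 90.6 CPM in the knockout libraries, a count over the whole gene that includes reads outside any deleted part. Avil, the gene whose promoter drives the Cre, was at 1003 to 1095 CPM and 439.5 to 517.6 CPM. The labels do not state that each library is a different mouse, so the p-values reflect variation among libraries, which may partly be technical. Fold changes are log2, knockout minus control, with the standard error (SE) from edgeR. Same-numbered libraries of the groups deviated together from their group means, so each test was also run with the replicate number as a block. "Fell" and "rose" below are used of genes with an adjusted p under 0.05 in that blocked edgeR fit, and no gene of the table passed in edgeR without the block. Avil fell (log2 fold change -1.16, SE 0.07, edgeR adjusted p = 2.39e-05). Kif2a passed in neither fit (log2 fold change -0.14, SE 0.07, edgeR adjusted p = 0.284 with the block). The source of its remaining reads was not tested. Whole-tissue counts cannot tell fewer neurons of a kind from less RNA per neuron. Every listed marker of neurons, satellite glia and Schwann cells was at 1 CPM or more in at least 1 library. Control replicate 2 stood apart, because its 10 skeletal muscle markers summed to 1538 CPM, against 7.66 to 71.6 CPM in the other 5 libraries.

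Per kilobase of exonic length, the level in the control libraries spanned from 0.186 CPM per kb for Doc2b to 433 CPM per kb for Cplx1. Cplx1 encodes a complexin, a small protein that clamps and then promotes SNARE-driven fusion. Snap25, a plasma membrane SNARE, followed at 245 ± 17.9 CPM per kb, and Rab3a, a small GTPase of the vesicle surface, at 178 ± 22.0 CPM per kb. The control ranges of these 3 genes did not overlap one another. All 11 active zone genes had a control mean below 10 CPM per kb, from 2.71 for Rims3 to 9.35 for Erc2, whereas none of the 11 vesicle protein genes did. Of the 39 neighbouring pairs in this order, 32 had control ranges that overlapped, so most neighbours could not be ranked. Exonic length was the union of all annotated exons, which can exceed the transcript that is made.

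**Figure D1:**
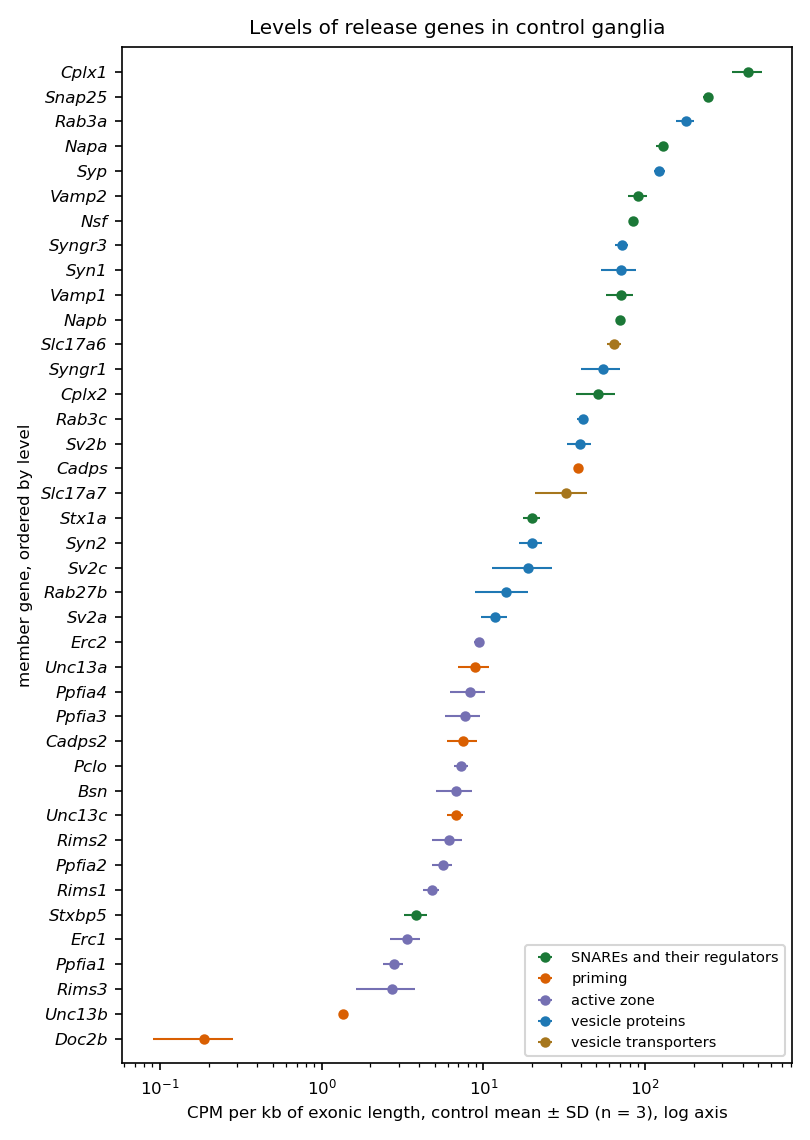
Level of each of the 40 genes in the 3 control libraries, as CPM per kb of exonic length on a log axis; points are means, bars the SD (n = 3), and colours the role groups. Cplx1 and Snap25 lead, the means of the active zone genes all lie below 10 CPM per kb, and Doc2b is lowest at 0.186 CPM per kb.

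Of the 40 genes, 3 fell and 0 rose with the replicate block. The 3 were Unc13c of the priming group, Rab27b of the vesicle proteins and Rims1 of the active zone. Among all tested genes, 2.36% fell and 1.24% rose in the same fit (3.6% in either direction), and the 3 genes are 7.5% of the 40. Without the block 0 of the 40 passed in edgeR, where the unadjusted p was under 0.05 for 5 of them (5.48% of all tested genes). DESeq2 without the block called Unc13c lower and none higher, where it called 0.432% of all tested genes (0.366% lower and 0.0665% higher), and limma-voom called none. With the block, DESeq2 called 2 of the 40 lower (Unc13c and Rab27b) and 2 higher (Snap25 and Cplx1), against 1.89% and 0.924% of all tested genes (2.81% in either direction). Without pair 3, edgeR with the block called 3 lower (Unc13c, Rab27b and Sv2c) and 5 higher (Snap25, Vamp1, Cplx1, Sv2b and Slc17a7). Of the 15109 genes that passed the filter in that fit, it called 3.45% lower and 2.49% higher (5.94% in either direction). The median log2 fold change of the 40 was -0.07, against 0.01 over all tested genes. Without the block it ran from -0.20 to 0.03 as single libraries were left out, and it was positive only without control replicate 1. With the block the median was -0.08, and -0.11, -0.04 and -0.06 with pair 1, 2 or 3 left out. The knockout libraries lay wholly below the controls for 4 genes and wholly above for 2, which is 15% of the 40. Over all tested genes these shares were 6.12% below and 5.02% above, or 11.1% in all. The knockout was lower in 3 of 3 same-numbered pairs for 16 of the 40 (40%) and higher in 3 of 3 for 8 (20%), against 20.6% and 21.4% of all tested genes.

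**Figure D2:**
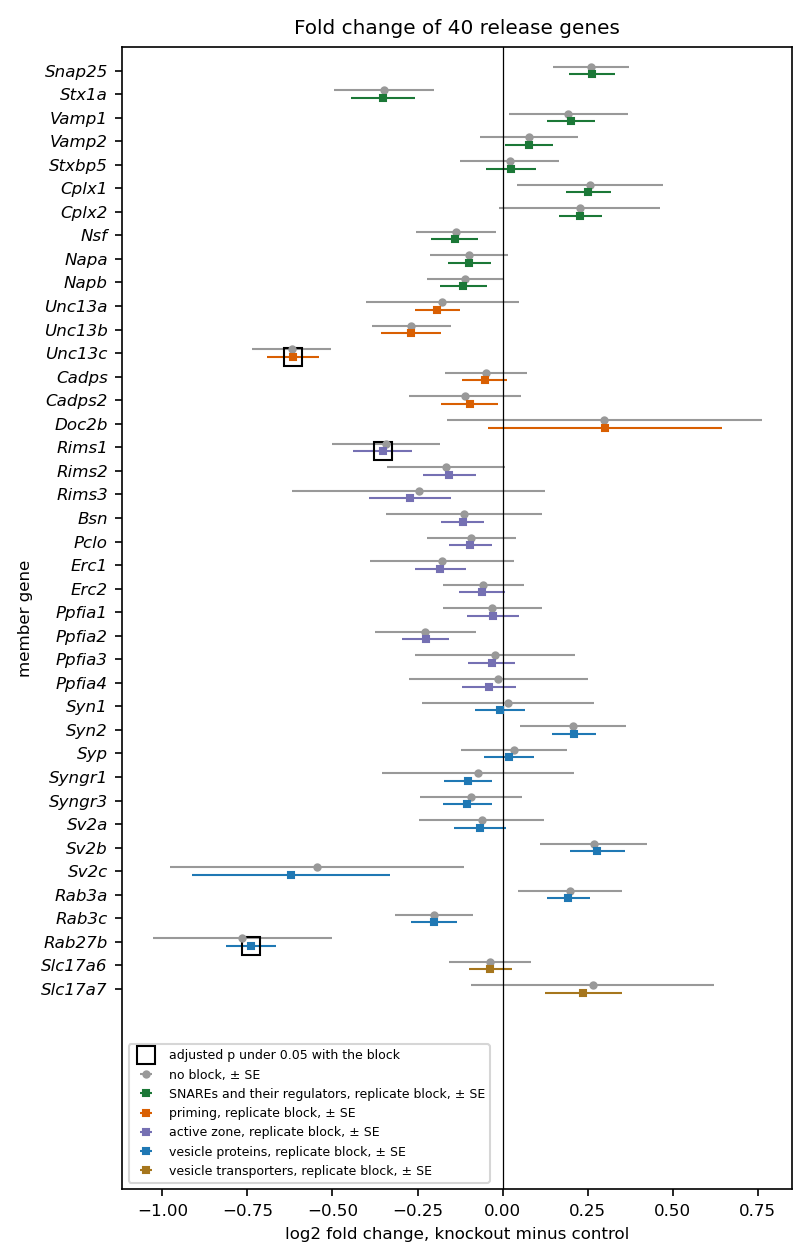
Log2 fold change, knockout minus control, of the 40 genes; grey circles are the edgeR fit without a block and coloured squares the fit with the replicate block, with bars for the SE, and black boxes mark the 3 genes that passed. Unc13c, Rims1 and Rab27b lie left of zero, and all 11 active zone genes have a negative value in both fits.

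Among the SNAREs, Snap25 was at 1670, 1538 and 1781 CPM in the controls and at 1996, 1919 and 2061 CPM in the knockout. All 3 knockout libraries were above all 3 controls, with a mean at 120% of theirs. Its log2 fold change was 0.26 (SE 0.07) with the block and did not pass (edgeR adjusted p = 0.0559). DESeq2 with the block did call it higher (adjusted p = 0.00554). Its partner on the plasma membrane, Stx1a, the syntaxin of neurons, had values of the other sign. Stx1a was at 55.1, 58.6 and 46.4 CPM in the controls and at 49.6, 37.8 and 38.2 CPM in the knockout. The groups overlapped, the value was lower in 3 of 3 same-numbered pairs, and the blocked estimate of -0.35 (SE 0.09) missed the threshold (edgeR adjusted p = 0.0735).

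The vesicle SNAREs, or synaptobrevins, are encoded by Vamp1 and Vamp2. Vamp1 was at 716 ± 135 CPM in the control and 819 ± 120 CPM in the knockout, and Vamp2 at 343 ± 45.9 and 362 ± 46.1 CPM. Neither passed, with edgeR adjusted p-values of 0.148 and 0.595 with the block. Per kilobase, Vamp1 made up 43.8% ± 5.55 of the combined Vamp1 and Vamp2 level in the control and 45.9% ± 1.14 in the knockout (SD, n = 3).

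Cplx1 was at 1138, 740.0 and 964.6 CPM in the controls and at 1426, 874.2 and 1098 CPM in the knockout. Each knockout library exceeded the control of its number, while the groups overlapped widely. With the block the log2 fold change of Cplx1 was 0.25 (SE 0.07, edgeR adjusted p = 0.0639), and DESeq2 with the block called it higher (adjusted p = 0.0166). Cplx2, the other complexin, had 0.23 (SE 0.06, edgeR adjusted p = 0.0746) and was higher in 3 of 3 pairs. Its share of the complexin level per kilobase was 10.5% ± 0.615 in the control and 10.4% ± 0.352 in the knockout. The proteins that take used SNARE complexes apart had values of the other sign. The ATPase gene Nsf was at -0.14 (SE 0.07), and the adaptor genes Napa and Napb were at -0.10 (SE 0.06) and -0.12 (SE 0.07). Each was lower in 3 of 3 pairs, and none passed. Stxbp5, or tomosyn, which restrains SNARE assembly, was at 0.03 (SE 0.07).

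Priming held the gene with the smallest p-value of the 40 without the block, Unc13c. It encodes a member of the Munc13 family, proteins that open syntaxin so that SNARE complexes can form. Unc13c was at 55.2, 66.8 and 55.5 CPM in the controls and at 38.8, 39.7 and 36.9 CPM in the knockout. The groups did not overlap, the knockout libraries lay within 3 CPM of each other, and their mean was 65.1% of that of the controls. Unc13c fell by 0.62 on the log2 scale (SE 0.08, edgeR adjusted p = 0.00132). With pair 1, 2 or 3 left out of the blocked fit it still passed, with log2 fold changes of -0.68, -0.54 and -0.63. Such fits, also used for other genes, keep 2 libraries per group, so little replication underlies their p-values. They called 208, 819 and 897 genes of the whole table without pair 1, 2 and 3, against 542 with all pairs. Without the block the log2 fold change of Unc13c was -0.62 (SE 0.12, edgeR adjusted p = 0.377). Leaving out control replicate 2, the library with muscle RNA, took it to -0.52. In the authors' deposited table, Unc13c has a log2 fold change of -0.62 and a false discovery rate of 0.000556. The gene spans chr9:73479422-73968966 (GRCm38, minus strand), and no other annotated gene shares its exons.

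The 250 bases before the annotated start of Unc13c are shown because it is the priming gene that fell. They come from RefSeq (GRCm38.p6, chr9:73969038-73969287, minus strand) and are written 5′ to 3′ in lower case, with capitals for a match to TGTGGT on either strand, the core motif of Runx factors.
Unc13c: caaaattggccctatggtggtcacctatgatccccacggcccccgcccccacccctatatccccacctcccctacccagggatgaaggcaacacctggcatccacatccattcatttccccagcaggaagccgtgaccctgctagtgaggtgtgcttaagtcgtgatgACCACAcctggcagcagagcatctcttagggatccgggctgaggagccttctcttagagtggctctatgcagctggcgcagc
The match begins 82 bases before the start. Runx factors are known in mice to set the identity of nociceptor and proprioceptor classes. The same letters occur in 14% of the 32851 promoter windows searched, all of this length, and in 3 of the 34 listed genes with a window (Napb, Rab3a and Unc13c). The other motifs searched on both strands were TGACGTCA of CREB and ATF factors and TGANTCA of AP-1 factors, which can overlap in part. Neither is in this window, and they occur in 1.55% and 6.75% of windows.

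The other Munc13 genes had smaller values of the same sign. Unc13b was at 32.1, 31.3 and 28.8 CPM in the controls and at 24.3, 27.9 and 24.4 CPM in the knockout. The groups did not overlap, yet the blocked value of -0.27 (SE 0.09) missed the threshold (edgeR adjusted p = 0.128). Unc13a, the most abundant of the family per kilobase, was at 113 ± 24.8 CPM in the control and 99.5 ± 28.7 CPM in the knockout, and was lower in 3 of 3 pairs (-0.19, SE 0.07, edgeR adjusted p = 0.146). Unc13c made up 33.2%, 45.3% and 41.1% of the Munc13 level per kilobase in the controls, and 27.6%, 36.4% and 35.8% in the knockout. That share was lower in each knockout library than in the control of its number, and the groups overlapped. Unc13a shares exonic positions with Colgalt1 on the other strand, and without strand information their reads may be mixed.

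Cadps and Cadps2 encode priming factors of dense-core vesicles. Cadps, the member of the group with the highest level per kilobase, was at 616.2, 547.4 and 580.5 CPM in the controls and at 631.4, 526.3 and 527.7 CPM in the knockout. Those groups overlapped, with a log2 fold change of -0.05 (SE 0.07) in the blocked fit. Cadps2 was at -0.10 (SE 0.08). Doc2b, a calcium sensor of spontaneous release, had 9 to 23 counts in the controls and 12 to 28 in the knockout, too few to resolve its log2 fold change of 0.30 (SE 0.34).

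All 11 active zone genes had a negative log2 fold change in both fits, from -0.34 for Rims1 to -0.01 for Ppfia4 without the block, and a median of -0.11. Of these, 1 fell with the block. Over all tested genes, 47.7% had a negative value without the block. In 6 of the 11 the knockout was lower in 3 of 3 pairs, against 20.6% of all tested genes. These genes share their libraries, so the 11 values are not independent. Without the block and with 1 library left out, the sign turned for Rims3, Bsn, Erc2, Ppfia1, Ppfia3 and Ppfia4. Single libraries were not left out of the blocked fit.

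Rims1 encodes a scaffold that binds vesicle Rab3 and calcium channels. It was at 38.2, 36.9 and 30.8 CPM in the controls and at 33.4, 26.7 and 23.4 CPM in the knockout. The lowest control was below the highest knockout library, while each knockout library was below the control of its number. Rims1 fell by 0.35 (SE 0.09, edgeR adjusted p = 0.0499). That call sits at the threshold. It was lost with any of the 3 pairs left out (adjusted p = 0.0807 to 0.116), with RLE size factors, library totals or no filter (0.0512 to 0.0532), and in DESeq2 with the block (0.197). Rims2 was at -0.16 (SE 0.08) and Rims3 at -0.27 (SE 0.12), and neither passed. Rims1 spans chr1:22286251-22805994 (minus strand).

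The 250 bases before the start of Rims1 (RefSeq, GRCm38.p6, chr1:22806159-22806408, minus strand) are given as those of the active zone gene that fell. They hold none of the 3 motifs named above, so no letters are in capitals.
Rims1: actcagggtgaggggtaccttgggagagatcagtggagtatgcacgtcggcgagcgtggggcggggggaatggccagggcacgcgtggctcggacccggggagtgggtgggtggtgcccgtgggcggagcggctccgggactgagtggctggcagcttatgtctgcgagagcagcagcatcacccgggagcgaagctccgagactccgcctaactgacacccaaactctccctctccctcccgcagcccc

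The giant scaffolds Bsn (bassoon) and Pclo (piccolo) were at 108 ± 27.2 and 164 ± 16.1 CPM in the control and at 99.6 ± 26.8 and 154 ± 18.7 CPM in the knockout. Both were lower in 3 of 3 pairs, with log2 fold changes of -0.12 (SE 0.06) and -0.09 (SE 0.06), and neither passed. Erc1 and Erc2 encode ELKS proteins, which link these scaffolds to Rims. Erc2, with the highest control mean of the group per kilobase, was at 96.9, 90.6 and 85.2 CPM in the controls. In the knockout it was at 98.5, 84.5 and 79.3 CPM, and the groups overlapped. Erc1 was at -0.18 (SE 0.08, edgeR adjusted p = 0.212 with the block).

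Ppfia1 to Ppfia4 encode liprin-α proteins, which organise the active zone. Ppfia2 was at 62.4, 69.5 and 52.0 CPM in the controls and at 55.2, 57.3 and 44.6 CPM in the knockout. It was lower in 3 of 3 pairs, and its blocked value of -0.23 (SE 0.07) missed the threshold (edgeR adjusted p = 0.106). Ppfia2 shares exonic positions with Acss3 on the other strand. Ppfia1, Ppfia3 and Ppfia4 were between -0.04 and -0.03 in the blocked fit.

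The vesicle proteins held the gene with the smallest p-value of the 40 in the blocked fit. Rab27b encodes a small GTPase that docks secretory granules at the plasma membrane. It was at 113.4, 208.5 and 121.3 CPM in the controls and at 71.1, 110.9 and 78.7 CPM in the knockout. Replicate 2 was the highest library in each group, the lowest control was just above the highest knockout library, and the knockout averaged 58.8% of the control level. Rab27b fell by 0.74 (SE 0.07, edgeR adjusted p = 0.000279). With pair 1, 2 or 3 left out it still passed, at -0.78, -0.64 and -0.79. Without the block the log2 fold change was -0.77 (SE 0.26, edgeR adjusted p = 0.838), and without control replicate 2 it was -0.43 (SE 0.20). In the authors' deposited table, Rab27b has a log2 fold change of -0.77 and a false discovery rate of 0.0989. Rab27b spans chr18:69979131-70141605 (minus strand).

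**Figure D3:**
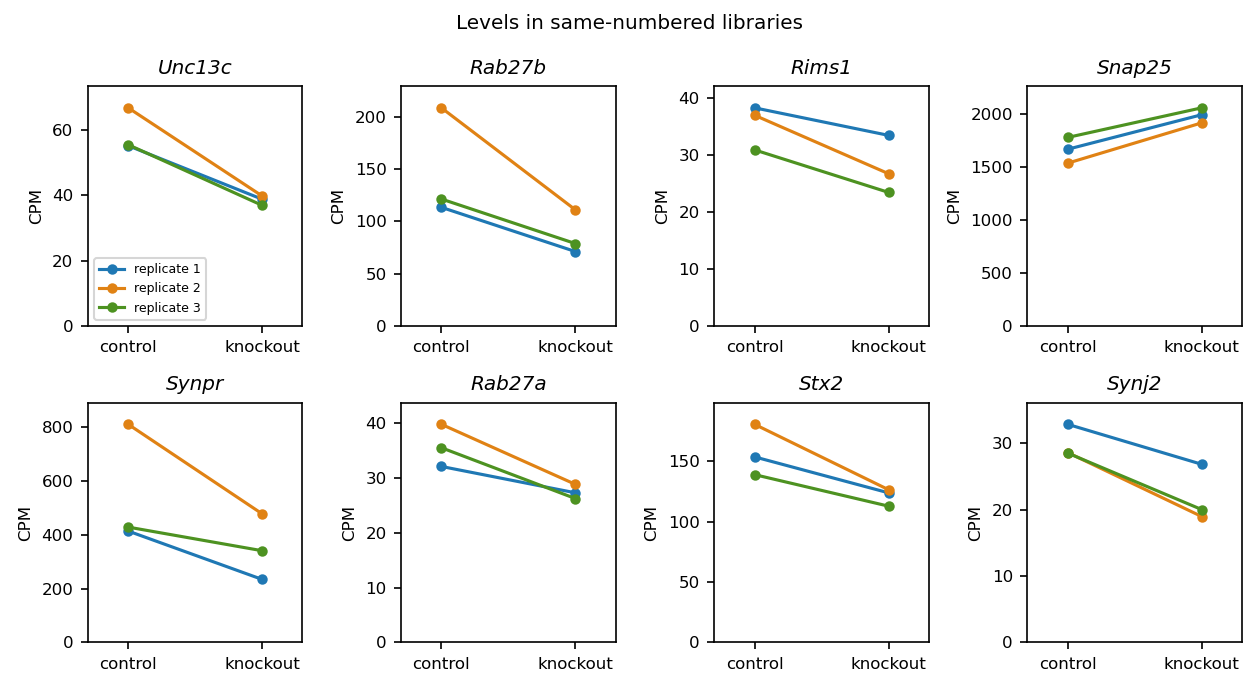
CPM in same-numbered control and knockout libraries, joined by lines and coloured by replicate number, for Unc13c, Rab27b, Rims1 and Snap25 and for 4 genes of the wider pathway, each axis starting at 0. Every line falls for Unc13c, Rab27b, Rims1, Synpr, Rab27a, Stx2 and Synj2, and every line rises for Snap25, which did not pass in edgeR.

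The Rab3 GTPases of the vesicle surface had values of opposite sign. Rab3c was at 470.6, 543.6 and 477.8 CPM in the controls and at 449.0, 448.0 and 399.4 CPM in the knockout, so the groups did not overlap. Rab3a was at 446.7, 348.8 and 392.4 CPM in the controls and at 518.8, 379.2 and 464.0 CPM in the knockout, higher in 3 of 3 pairs with overlapping groups. In the blocked fit Rab3c was at -0.20 (SE 0.07) and Rab3a at 0.19 (SE 0.06), with edgeR adjusted p-values of 0.137 and 0.13. Rab3a shares exonic positions with Mpv17l2 on the other strand.

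The Sv2 glycoproteins of the vesicle membrane also differed in sign. Sv2b was at 366.3, 265.1 and 363.7 CPM in the controls and at 451.2, 368.0 and 379.1 CPM in the knockout, wholly above the controls (log2 fold change 0.28, SE 0.08, edgeR adjusted p = 0.0926 with the block). Sv2c was at 257.3, 111.1 and 180.9 CPM in the controls and at 214.4, 87.4 and 74.1 CPM in the knockout. Its highest library was 2.32 times its lowest in the controls and 2.89 times in the knockout, the widest ratios of the 11 vesicle protein genes. Its blocked value was -0.62 (SE 0.29, edgeR adjusted p = 0.422). Sv2b took 56.8% ± 4.43 of the Sv2 level per kilobase in the control and 67.1% ± 5.99 in the knockout (SD, n = 3), and these shares did not overlap between the groups. It was the 1 family of the 13 examined in which a member's share did not overlap. By CPM, the groups did not overlap for 11.1% of all tested genes, and no test was run on the shares.

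The synapsins tether vesicles to the cytoskeleton. Syn2 was at 140 ± 23.0 CPM in the control and 161 ± 21.8 CPM in the knockout, higher in 3 of 3 pairs (0.21, SE 0.07, edgeR adjusted p = 0.109 with the block). Syn1 was at 233 ± 56.8 and 235 ± 79.4 CPM, and its exons overlap those of Araf on the other strand. The membrane proteins Syp (synaptophysin), Syngr1, Syngr3 and Sv2a had log2 fold changes between -0.10 and 0.02 in the blocked fit, and none passed.

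Slc17a6 and Slc17a7 encode vesicular glutamate transporters, and in mice Slc17a7 is known chiefly from large myelinated sensory neurons. Slc17a6 was at 355.5, 376.0 and 311.2 CPM in the controls and at 339.3, 363.1 and 313.4 CPM in the knockout, a log2 fold change of -0.04 (SE 0.06) with the block. Slc17a7 was at 229.2, 107.4 and 185.0 CPM in the controls and at 319.4, 136.8 and 170.4 CPM in the knockout. Its libraries differed more within groups than between them, and its blocked value was 0.24 (SE 0.11, edgeR adjusted p = 0.319). Per kilobase, Slc17a7 made up 22.2% to 39.2% of the pair in the controls and 27.4% to 48.5% in the knockout.

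Much of the variation of these genes ran between replicate numbers rather than groups. For 28 of the 40 (70%), replicate 1 was the highest library in the control and in the knockout group, against 27.9% of all tested genes. Sv2c, Slc17a7, Rims3 and Syngr1 were among them. Napa, Napb, Unc13c, Cadps2, Ppfia2, Rab27b and Slc17a6 were instead highest in replicate 2 of both groups. The median SE of the 40 was 0.16 without the block and 0.07 with it, against 0.17 and 0.10 over all tested genes. What the replicate numbers share is not stated in the labels.

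**Figure D4:**
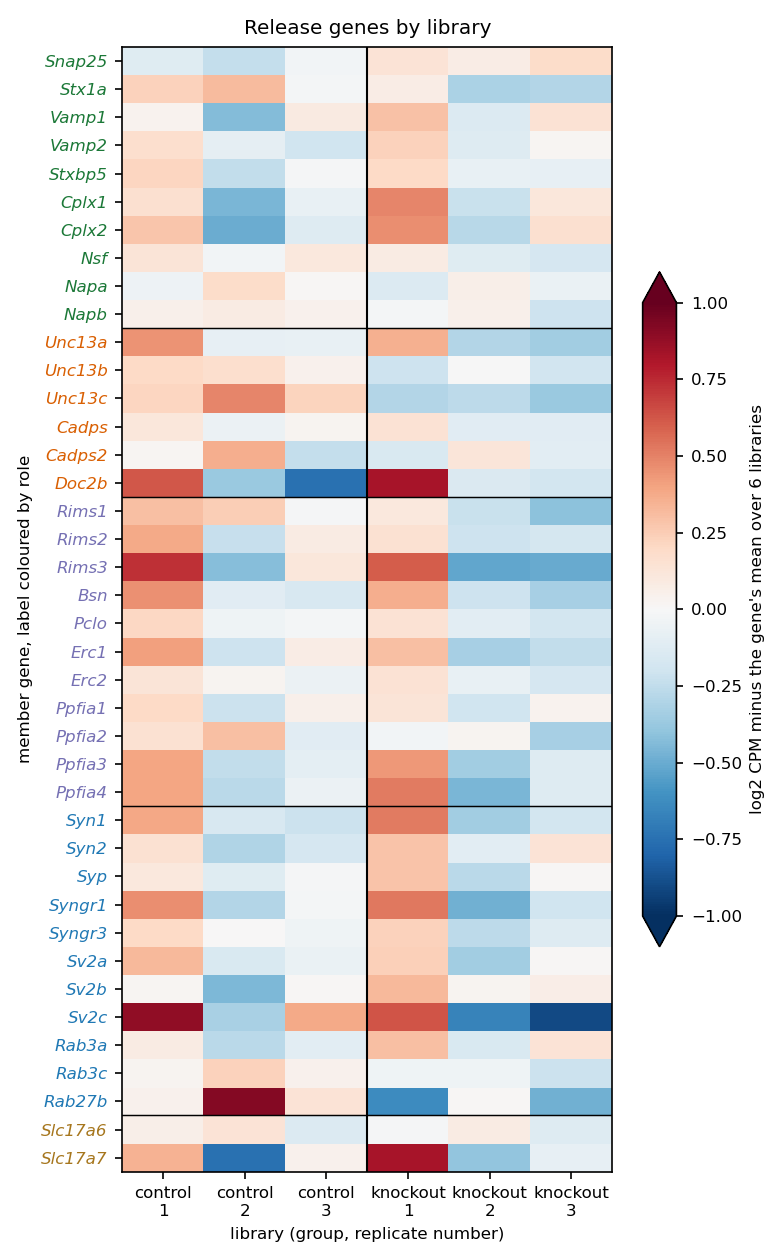
Log2 CPM of each gene in each of the 6 libraries, minus the gene's mean over the 6, on a scale from blue (lower) to red (higher); labels are coloured by role and the black vertical line parts control from knockout. The replicate 1 columns of both groups are red for most genes, whereas Unc13c is red in all 3 controls and blue in all 3 knockout libraries. Rab27b is dark red in control replicate 2, near white in control replicate 1 and knockout replicate 2, and blue in knockout replicates 1 and 3.

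Among other genes of the release pathway, 5 of 81 tested fell and 0 rose with the block, against 2.36% and 1.24% of all tested genes. Of other SNAREs and their partners, 1 of 19 fell, namely Stx2, a syntaxin of the plasma membrane. Stx2 was at 153.6, 180.5 and 138.9 CPM in the controls and at 123.8, 126.4 and 112.8 CPM in the knockout, with no overlap, and fell by 0.38 (SE 0.07, edgeR adjusted p = 0.0129), a call lost with pair 1 left out (adjusted p = 0.0750). Of other priming and active zone genes, 0 of 20 passed. Nrxn3, a neurexin of the presynaptic membrane, had the smallest p-value there, at 73.4 ± 5.43 CPM in the control and 88.7 ± 3.41 CPM in the knockout (edgeR adjusted p = 0.0539 with the block).

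Of other vesicle proteins and transporters, 2 of 16 fell. Synpr encodes synaptoporin, a vesicle membrane protein related to synaptophysin. It was at 414.4, 811.8 and 429.2 CPM in the controls and at 234.4, 478.3 and 341.2 CPM in the knockout. Replicate 2 was highest in both groups, as for Rab27b, and the groups overlapped. Synpr fell by 0.64 (SE 0.10, edgeR adjusted p = 0.00952), and it passed with each pair left out, at log2 fold changes of -0.79 to -0.56. Without the block and without control replicate 2 it was at -0.26. Rab27a, the paralogue of Rab27b, was at 35.9 ± 3.86 CPM in the control and 27.5 ± 1.31 CPM in the knockout, with no overlap. Rab27a fell by 0.38 (SE 0.08, edgeR adjusted p = 0.0347). That call was lost with any of the 3 pairs left out (adjusted p = 0.0590 to 0.0890) and in DESeq2 with the block (0.134). Exons of Rab27a overlap those of Gm27186 on the same strand.

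Synpr has 2 annotated starts, and the 250 bases before each are given because it is the vesicle gene outside the 40 with the largest fall. Both are from RefSeq (GRCm38.p6, plus strand), at chr14:13284530-13284779 and chr14:13453708-13453957, with capitals again for TGTGGT on either strand.
Synpr first start: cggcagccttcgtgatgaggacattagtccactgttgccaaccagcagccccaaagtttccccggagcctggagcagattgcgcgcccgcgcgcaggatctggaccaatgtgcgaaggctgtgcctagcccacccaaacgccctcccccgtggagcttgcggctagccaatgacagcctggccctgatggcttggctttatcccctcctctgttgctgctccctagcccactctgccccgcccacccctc
Synpr second start: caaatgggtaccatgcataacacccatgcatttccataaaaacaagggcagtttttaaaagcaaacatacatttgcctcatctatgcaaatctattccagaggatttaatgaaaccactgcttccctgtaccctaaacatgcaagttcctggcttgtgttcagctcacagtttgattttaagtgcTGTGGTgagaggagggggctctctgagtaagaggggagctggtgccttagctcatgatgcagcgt
The letters occur 65 bases before the later start and nowhere in the window of the earlier one. A match describes the sequence, and binding was not measured.

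Of the genes of vesicle endocytosis, which recovers membrane after release, 2 of 26 fell. Synj2, a phosphoinositide phosphatase that helps uncoat vesicles, went from 30.0 ± 2.48 to 21.9 ± 4.27 CPM and fell by 0.46 (SE 0.10, edgeR adjusted p = 0.0231). Its exons overlap those of Serac1 on the other strand. Pacsin1, a membrane-bending partner of dynamin, went from 197 ± 52.0 to 161 ± 58.2 CPM and fell by 0.31 (SE 0.07, edgeR adjusted p = 0.0344), with overlapping groups. Both calls were lost with pair 1 left out (adjusted p = 0.0593 and 0.0842), Pacsin1 also with pair 2 left out (0.0960), and Synj2 also in DESeq2 with the block (0.0650). The medians of these 4 lists lay between -0.07 and 0.04 without the block.

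Markers of neuron classes moved between the groups beside these genes. The 25 markers of non-peptidergic nociceptors, pain neurons, and of itch neurons summed to 2673 to 3676 CPM in the controls and 1635 to 2128 CPM in the knockout. Of these 25, 15 fell and 0 rose, with a median log2 fold change of -0.93. Control replicate 2 had the highest sum. It also had the highest Rab27b, Unc13c, Synpr, Stx2 and Rab27a of the controls. Rims1, Synj2 and Pacsin1, which also fell, were instead highest in control replicate 1. Stx1a, Napa, Napb, Cadps2, Ppfia2, Rab3c and Slc17a6, which did not pass, were highest in control replicate 2 as well. The 24 markers of myelinated mechanoreceptors and proprioceptors summed to 12807 to 17670 CPM in the controls and 16425 to 22031 CPM in the knockout, with 4 rising and 0 falling, and replicate 1 was the highest library in each group. The 13 peptidergic nociceptor markers summed to 2745 to 3013 CPM and 3149 to 3449 CPM, with 1 rising. The 10 markers of C-fibre mechanoreceptors and cold-sensing neurons summed to 835.3 to 1138 CPM and 697.1 to 810.3 CPM, with 2 falling. These lists are not fully separate, because Gfra2 is also among the 25, and Slc17a8 is also among the other vesicle proteins and transporters. The 14 pan-neuronal markers summed to 10931 to 11519 CPM and 11557 to 12930 CPM, without overlap, and 2 of them rose. The part of these shifts in the changes of the release genes was not tested.

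Non-neuronal markers varied as well. The 14 satellite glial markers summed to 7432 to 8775 CPM in the controls and 8059 to 10065 CPM in the knockout, and the 14 Schwann cell markers to 5262 to 6238 and 4939 to 6782 CPM. With the block, 1 satellite glial marker rose and 1 fell, and 0 Schwann cell markers passed in either direction. The 12 macrophage markers summed to 96.1 to 181 CPM and 115 to 228 CPM, the 10 endothelial markers to 131 to 179 and 168 to 174 CPM, and the 10 fibroblast and perineurial markers to 1961 to 4239 and 2769 to 5196 CPM. Of these, 2 macrophage markers and 1 fibroblast or perineurial marker rose with the block, and none fell. Adipocyte markers summed to at most 39.5 CPM, with Lep under 1 CPM in every library. For erythroid cells, Alas2 alone was read, at 9.07 to 31.4 CPM. Their part in the results was not tested either.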

How the data were processed

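Whole dorsal root ganglia were profiled in 3 control and 3 knockout libraries, and groups and replicate numbers were taken from the sample titles. The submitters' processing notes name cutadapt, STAR, DESeq2 and build mm10. The counting tool, gene annotation, strand setting and tool versions were not given in the sources used here. Per the file headers, the authors deposited raw counts per gene and library, a normalized signal per gene and library, not tested here, and their own log2 fold changes, p-values and false discovery rates. Another 6 columns of per-library values were not used.

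The analysis of the counts used edgeR 4.0.16 under R 4.3.3: filterByExpr, TMM scaling, robust quasi-likelihood fits with group as the term, and Benjamini-Hochberg adjustment over all 15043 tested genes, with a threshold of 0.05. The code was tested on simulated data. Alternatives were the replicate number as a block, DESeq2 1.42.0, limma-voom (limma 3.58.1), RLE size factors, library totals, scaling to pan-neuronal markers, no filter, and leaving out libraries. A count of 3 equals 0.159 to 0.185 CPM depending on the library, a floor that covers counting error only.

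Pearson's correlation of the deviations of same-numbered libraries from their group means, over all tested genes on a log2(CPM + 1) scale, was 0.62, 0.41 and 0.20 for numbers 1, 2 and 3. Each exceeds 0.1, so same-numbered libraries were treated as pairs, and each library correlated best with its own number. Control replicate 2 and knockout replicate 3 also reached 0.17, so the third pair is the least certain, and the pairing comes from the data, not from the labels.

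The member genes, lists and tests were chosen with earlier results of these data known. The genes given with every library's value were those that passed in either edgeR fit, the 2 of smallest p of the unblocked fit and the highest per kilobase in each role. From the wider lists, genes that passed, or otherwise the 1 of smallest p, are named. Sv2b and Sv2c were added after their values were seen, and RLE, totals, no filter and pan-neuronal scaling within the blocked fit were also chosen after seeing the data. Exon lengths, coordinates and overlaps are from GENCODE M21 (GRCm38), and promoter windows from RefSeq, cut to the 250 bases before the start. Beyond the overlaps named with their genes, Bsn shares exonic positions with another gene on the same strand. Doc2b, Pclo, Erc1, Erc2, Ppfia3, Syn2, Syp, Sv2b and Nrxn3 share them with genes on the other strand. Windows of 34 of the 40 genes were matched.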

Additional observations from a re-analysis of the deposited data

How the results depend on the processing

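The edgeR calls in the report rest on the replicate block: without it edgeR called 0 of 15043 genes, and 825 had an unadjusted p under 0.05. DESeq2 without the block called 65 genes, 1 of them among the 40 (Unc13c, lower), limma-voom called 0, and DESeq2 with the block called 423. With the block edgeR called 542 genes, which became 208 to 897 with 1 pair left out. Lower calls among the 40 were 3 with the block in edgeR and 2 in DESeq2, against 2.36% and 1.89% of all tested genes. Higher calls were 0 in edgeR and 2 in DESeq2 (Snap25 and Cplx1), against 1.24% and 0.924% of all tested genes. They were 0 to 5 with 1 pair left out, and the 5 came without pair 3, where 2.49% of all genes were called higher. Of the wider pathway, 5 of 81 genes were lower with the block in edgeR and 3 in DESeq2, against the same 2.36% and 1.89%. With pair 1, 2 or 3 left out, 1, 3 and 6 were lower and 0, 1 and 4 were higher. Those fits called 208, 819 and 897 genes of the whole table in either direction.

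Settings added to the blocked fit after seeing the data were RLE size factors, library totals, no filter and pan-neuronal scaling. The first 3 left Unc13c and Rab27b called and lost Rims1. Scaling to the pan-neuronal markers, whose sums were higher in the knockout, moved the median of all genes from 0.01 to -0.12. With the block this scaling called 1582 of 15043 genes in either direction, 12 of the 40 lower and 17 of 81 pathway genes lower. Lower calls among all genes were not counted apart in that fit, so these lower counts have no share to be set against. The median of the 40 minus that of all genes was -0.09 in the blocked fit with that scaling and without it. It also turned the sign, without the block, of Vamp2 (-0.057), Stxbp5 (-0.11), Syp (-0.10) and Syn1 (-0.12). Syn1 was at -0.0075 with the block in edgeR, -0.0070 in DESeq2 with the block and -0.0089 in limma-voom.

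With 1 library left out, values that changed sign ran from -0.36 to 0.10 for Bsn, -0.24 to 0.070 for Cadps2, -0.12 to 0.78 for Doc2b, -0.15 to 0.0088 for Erc2, -0.13 to 0.058 for Ppfia1, -0.28 to 0.18 for Ppfia3, -0.34 to 0.18 for Ppfia4, -0.73 to 0.088 for Rims3, -0.11 to 0.031 for Slc17a6, -0.18 to 0.50 for Slc17a7, -0.079 to 0.13 for Stxbp5, -0.21 to 0.083 for Sv2a, -0.30 to 0.22 for Syn1, -0.42 to 0.15 for Syngr1, -0.25 to 0.0059 for Syngr3, -0.12 to 0.16 for Syp, -0.44 to 0.0050 for Unc13a and -0.027 to 0.17 for Vamp2. None of these passed in the edgeR fits with all libraries, and the cause was not tested. The fits with 1 library left out carried no block. Leaving out 1 library did not turn the sign of Unc13c (-0.68 to -0.52), Rims1 (-0.50 to -0.23) or Rab27b (-0.98 to -0.43).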
